A study of Mus musculus with 8 samples.

Results

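The genes described here are 8 transcription factors that set and keep the identity of the hepatocyte, the main cell of the liver. They are Hnf4a, Foxa1, Foxa2, Foxa3, Cebpa, Onecut1, Nr5a2 and Prox1, taken by symbol from a table of 16640 genes, and all 8 were found in it. The table compares livers of Huwe1_LKO mice, in which Huwe1 was knocked out only in the liver, with livers of WT mice (4 livers each). Both groups were 1 year old and ate chow freely. Huwe1 encodes a large ubiquitin ligase. The sources used here do not give the promoter that drove the deletion, the deleted exons, the strain or the sex. The title of the series sets the comparison in the context of fatty liver and lipid metabolism. RNA came from whole liver, so fewer cells of a type and less RNA per cell cannot be told apart. The authors deposited 1 normalized expression value per gene and group, so values per liver were not analysed here and no spread between livers can be shown.

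Hepatocytes depend on a small circle of transcription factors that bind each other's genes as well as those of secreted plasma proteins and metabolic enzymes. FOXA proteins open packed chromatin, HNF4A and NR5A2 are nuclear receptors, C/EBP alpha is a leucine zipper protein and ONECUT1 carries a cut homeodomain, while PROX1 acts mainly as a co-repressor of the receptors. In adult mouse liver, loss of HNF4A or C/EBP alpha is known to impair lipid, glucose and ammonia handling.

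Of the 8 factors, 3 were higher and none was lower in Huwe1_LKO livers at an adjusted p under 0.05 as the authors' deposited table calls them. The factors that rose were Foxa3, Hnf4a and Prox1, with log2 fold changes of 1.02, 0.37 and 0.51 in Huwe1_LKO over WT. Foxa1 and Onecut1 were also above 0 but did not pass, and Foxa2, Cebpa and Nr5a2 lay within 0.10 of 0. At an unadjusted p under 0.05, 4 factors were higher and 0 lower by DESeq2 in the deposited table. The share of all genes at this unadjusted threshold is not given here. Counts at an unadjusted p, here and below, therefore have no background beside them. At an adjusted p under 0.05, 9.97% of all deposited genes passed, 4.41% as higher and 5.56% as lower. All 8 factors had a mean value of 100 or more, a class in which 15.0% passed, 5.95% as higher and 9.04% as lower. The median log2 fold change of the 8 factors was 0.41, against 0.02 over all genes and -0.02 over the class with a mean of 100 or more.

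Genes annotated as transcription factors also leaned upward. Of 571 genes that the deposited annotation marks as DNA-binding transcription factors, 44 were higher and 14 lower, so that 10.2% passed, 7.71% as higher, and the median log2 fold change was 0.09. Among the 275 of them with a mean value of 100 or more the median was 0.14. The annotation covers 7 of the 8 factors and leaves out Prox1. It also omits known factors with log2 fold changes in both directions, such as Zbtb20 (0.72), Xbp1 (0.40), Nr0b2 (-0.71) and Nr1i3 (-0.75), none of which passed. The class is thus incomplete. With fold changes centred on the most abundant eighth of genes, 69 of these genes were higher and 7 lower, and all genes then split into 1168 higher and 625 lower, against 734 and 925 as deposited. Centred on the median of all genes, 35 transcription factor genes were higher and 14 lower.

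**Figure D1:**
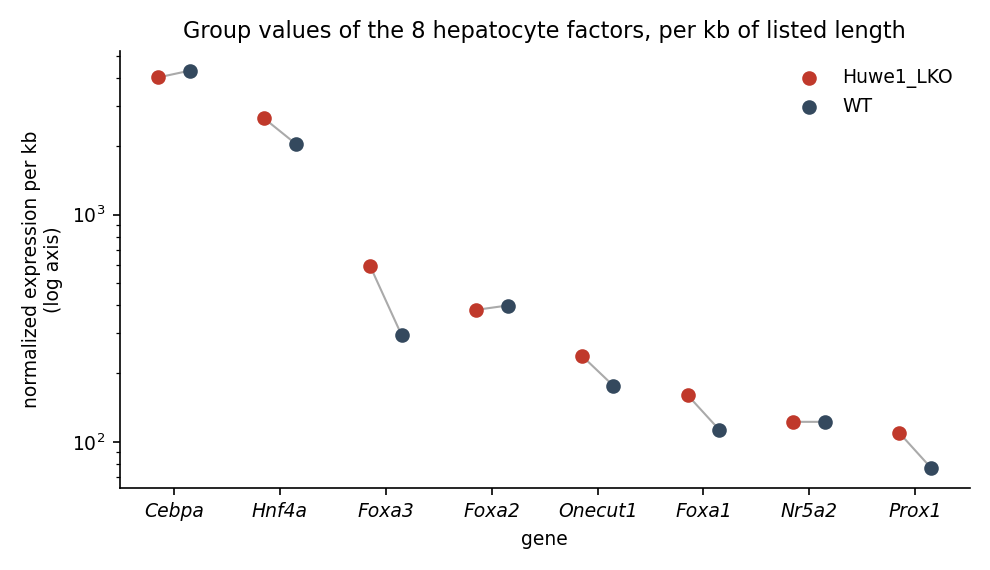
Normalized expression per kb of listed gene length (log axis) for the 8 factors, ordered by the Huwe1_LKO value. Each point is the authors' value for a group of 4 livers, with Huwe1_LKO on the left of each pair and WT on the right. Foxa3 shows the widest gap, 597 per kb in Huwe1_LKO against 294 per kb in WT.

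The levels of the factors spanned a wide range, compared per kb of listed gene length. Cebpa stood at 4025 per kb in Huwe1_LKO and 4313 per kb in WT in the authors' deposited table, and Hnf4a at 2659 and 2051 per kb in the same groups. Averaged over both groups, Cebpa had the highest and Hnf4a the fourth highest level per kb of the 571 annotated transcription factor genes. Prox1 had the lowest level of the 8, with 109 per kb in Huwe1_LKO and 76.7 per kb in WT. The highest factor was thus 36.8 times the lowest in Huwe1_LKO and 56.3 times in WT. The order was Cebpa, Hnf4a, Foxa3, Foxa2, Onecut1, Foxa1, Nr5a2 and Prox1 in Huwe1_LKO. In WT, Foxa2 stood above Foxa3 and Nr5a2 above Foxa1. With 1 value per group, whether neighbours in this order differ beyond the spread of livers was not tested.

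Foxa3 (Entrez ID 15377; chromosome 7, 19013283 to 19023539 in GRCm38) changed most. FOXA3 is the FOXA protein with the narrowest role in liver development, and in mice it is known to help keep blood glucose up during fasting. The authors' deposited table gave it 1217 in Huwe1_LKO and 600.3 in WT, 2.03-fold higher in Huwe1_LKO. The log2 fold change was 1.02 with a standard error of 0.20 implied by the deposited p, an interval of 0.63 to 1.41 (95%) and an adjusted p of 1.97e-05 by DESeq2. By the size of its log2 fold change it ranked 13 among the 571 annotated transcription factor genes, and 4 of the 275 with a mean of 100 or more exceeded it. It passed under each of the 6 alternative treatments of the deposited table that were run, with adjusted p from 2.29e-06 to 3.12e-05.

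Neither of its relatives passed. Foxa1 (chromosome 12, 57540628 to 57548029), which opens chromatin ahead of hormone receptors, had 512 in Huwe1_LKO and 359.8 in WT in the authors' deposited table. Its log2 fold change of 0.51 (implied standard error 0.19) did not pass, with an adjusted p of 0.0628, and the interval of 0.14 to 0.88 does not hold 0. Foxa1 lay close to the threshold and passed in 4 of the 6 alternatives, with adjusted p from 0.0215 to 0.078. Foxa2 (chromosome 2, 148042877 to 148046969), a regulator of bile acid and lipid genes, had 801 in Huwe1_LKO and 837 in WT in the deposited table. The log2 fold change was -0.06 (implied standard error 0.15, adjusted p = 0.874), with an interval from -0.35 to 0.23, below the 1.02 of Foxa3.

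Counted per kb, the make-up of the FOXA family shifted toward Foxa3. Foxa3 held 52.4% of the summed FOXA level in Huwe1_LKO and 36.5% in WT, computed from the deposited values. Foxa2 held 33.5% in Huwe1_LKO and 49.4% in WT, and Foxa1 14.1% and 14.0% in the same groups. The summed level of the 3 genes was 1138 per kb in Huwe1_LKO and 806 per kb in WT, 1.41 times as high. These shares are descriptions of the group values, and the difference between the fold changes of the 3 genes was not tested.

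**Figure D2:**
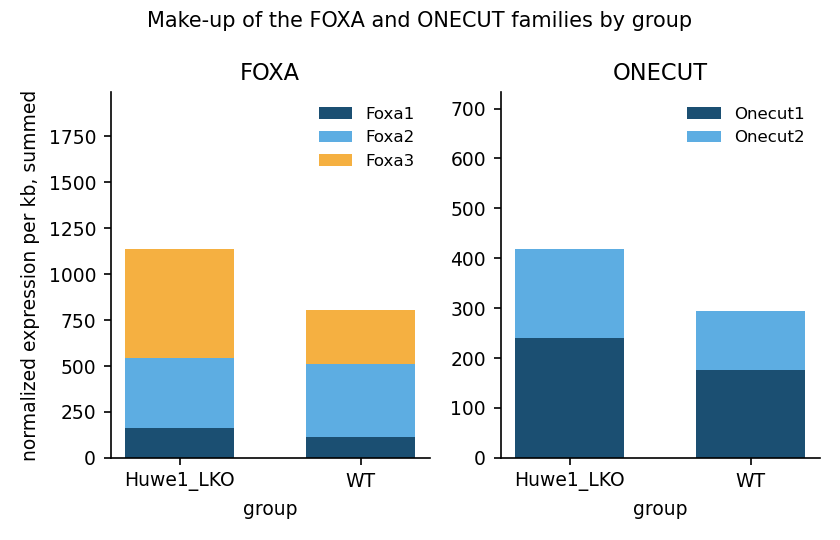
Normalized expression per kb of listed length, stacked by gene, for the FOXA and ONECUT families in Huwe1_LKO (left bar) and WT (right bar), 1 group value per gene and no error. The Foxa3 segment is 597 per kb in Huwe1_LKO and 294 per kb in WT, while the Foxa2 segments are 381 and 398 per kb.

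Hnf4a (Entrez ID 15378; chromosome 2, 163506811 to 163572907 in GRCm38) is the nuclear receptor on which most hepatocyte-specific transcription rests. The authors' deposited table lists it at 11654 in Huwe1_LKO and 8990.2 in WT, 1.30-fold higher in Huwe1_LKO (interval 1.09 to 1.54). On the log2 scale that is 0.37 (standard error implied by the p, 0.12), with an adjusted p of 0.0318 by DESeq2. The difference of 2664 normalized units was the largest among the factors, though a small one in proportion. The related receptor gene Hnf4g, best known from gut, was near the floor of the deposited table, at 2.83 in Huwe1_LKO and 2.41 in WT. Hnf4a has a pair of promoters, and RefSeq places their starts 40.3 kb apart. The upstream start is known from pancreas and fetal liver and the downstream one from adult hepatocytes. The deposited value sums both, so which start the added RNA came from was not tested.

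Prox1 (Entrez ID 19130; chromosome 1, 190118035 to 190170827 in GRCm38), a homeobox protein that restrains HNF4A and NR5A2 and also specifies lymphatic vessels, rose to 454 in Huwe1_LKO, against 318 in WT, in the authors' deposited table. This log2 fold change of 0.51 had an interval of 0.16 to 0.87 (standard error implied by the p, 0.18) and passed narrowly, with an adjusted p of 0.0466 by DESeq2. The call was lost when fold changes were centred on the median of all genes (adjusted p = 0.0583). Because lymphatic endothelium expresses Prox1 too, its other markers were set beside it. None of 6 such markers passed in DESeq2's deposited result, 0 had an unadjusted p under 0.05, and their values summed to 1059 in Huwe1_LKO and 924 in WT. Reln, which stellate cells also express, made up 716 of that sum in Huwe1_LKO and 558 in WT, and Flt4 made up 286 and 294. Per kb, the 6 markers ranged widely in the deposited values. Flt4, the receptor for lymphatic growth factors, stood at 48.9 per kb in Huwe1_LKO and 50.2 per kb in WT, Reln at 61.2 per kb in Huwe1_LKO and 47.7 per kb in WT, and Lyve1 at 15.1 per kb in Huwe1_LKO and 21.4 per kb in WT. Lower still were Ccl21a at 7.504 per kb in Huwe1_LKO and 6.503 per kb in WT, Pdpn at 3.44 and 3.31 per kb, and Mmrn1 at 1.02 and 0.801 per kb in the same groups. The low values of Ccl21a, Pdpn and Mmrn1 came with wide implied standard errors of 0.52, 0.56 and 0.53 on the log2 scale. The sum and these calls therefore do not measure the content of lymphatic endothelium. Its part in the value of Prox1 was not tested.

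The sequence just upstream of the starts of these 3 genes is shown because they are the factors that passed. Each window holds the 250 bases before a RefSeq start (GRCm38.p6), read 5′ to 3′ on the strand of the gene. Capitals mark matches to 6 short motifs that were searched on both strands and chosen with these windows already in view. For FOXA proteins the letters were TNTTTAC, present in 10.9% of the windows of that length. HNF4 was searched as CAAAGTC, which 3.84% of all windows hold. The C/EBP string TTGCNNAA was in 9.56% of them. ONECUT binding was represented by ATCAAT, found in 6.72% of windows genome-wide. NR5A2 was searched as AAGGTCA, which occurred in 4.08% of them. A TATA box was read as TATAAA, a string that 12.4% of all windows contain. The windows are chr7:19023540-19023789 (minus strand) for Foxa3, chr2:163506607-163506856 (plus) for the upstream and chr2:163546905-163547154 (plus) for the downstream start of Hnf4a, and chr1:190170828-190171077 (minus) for the outer of the Prox1 starts.
Foxa3: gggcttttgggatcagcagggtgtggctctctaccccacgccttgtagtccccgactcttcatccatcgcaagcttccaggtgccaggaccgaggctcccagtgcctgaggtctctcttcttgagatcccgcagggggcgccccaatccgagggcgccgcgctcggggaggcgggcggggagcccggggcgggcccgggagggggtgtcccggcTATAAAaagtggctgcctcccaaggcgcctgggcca
Hnf4a upstream: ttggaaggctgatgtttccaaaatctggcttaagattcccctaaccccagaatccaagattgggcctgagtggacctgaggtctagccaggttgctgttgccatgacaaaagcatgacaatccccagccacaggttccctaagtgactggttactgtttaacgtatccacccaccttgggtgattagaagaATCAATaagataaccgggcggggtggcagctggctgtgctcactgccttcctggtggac
Hnf4a downstream: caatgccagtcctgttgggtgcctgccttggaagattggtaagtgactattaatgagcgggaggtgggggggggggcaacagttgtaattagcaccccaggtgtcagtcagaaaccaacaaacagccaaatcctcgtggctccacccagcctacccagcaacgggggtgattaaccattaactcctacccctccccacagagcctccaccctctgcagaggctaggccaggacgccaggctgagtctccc
Prox1: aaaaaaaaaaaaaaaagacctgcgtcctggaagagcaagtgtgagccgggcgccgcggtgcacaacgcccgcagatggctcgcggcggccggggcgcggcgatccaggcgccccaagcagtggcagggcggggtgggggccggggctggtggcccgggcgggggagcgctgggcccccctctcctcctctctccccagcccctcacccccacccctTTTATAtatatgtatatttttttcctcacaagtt

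The Foxa3 and Prox1 windows were alike in base composition, and those of Hnf4a differed from them. The Foxa3 window was 68.8% G and C with 18 CpG sites, and the Prox1 window 64.8% with 20, while those of Hnf4a were 51.2% and 57.6% with 3 and 4. The median over all 32851 windows in RefSeq was 52.4%. The Foxa3 window held a TATA match that begins 36 bases before the start, and the Prox1 window one on the other strand, 34 bases before it. The upstream Hnf4a window held an ONECUT match beginning 59 bases before the start, and none of the 6 strings was found in the downstream window. No motif was shared by all of these 4 windows. A match is a string of letters, not a shown binding site.

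Onecut1 (chromosome 9, 74861921 to 74889648), the factor also called HNF6 that acts in hepatocytes and bile duct cells, had 437 in Huwe1_LKO and 322 in WT in the authors' deposited table. Its log2 fold change of 0.44 was not called (adjusted p = 0.467), and with an implied standard error of 0.30, the largest of the 8 factors, the interval ran from -0.15 to 1.04. Its close relative Onecut2, which overlaps with it in function in mouse liver development, rose to 2404 in Huwe1_LKO, against 1590 in WT, in the deposited table. The log2 fold change of Onecut2 was 0.60 (implied standard error 0.13, adjusted p = 0.000127), and it passed in all 6 alternatives. Per kb Onecut1 was the higher of the pair in both groups, and the summed ONECUT level was 419 in Huwe1_LKO and 295 in WT, 1.42 times as high. Onecut1 held 57.2% of the ONECUT level in Huwe1_LKO and 59.8% in WT.

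Cebpa and Nr5a2 showed no detectable change. Cebpa (chromosome 7, 35119293 to 35121928), a driver of gluconeogenic and urea cycle genes, had 10610.4 in Huwe1_LKO and 11369 in WT in the authors' deposited table. On the log2 scale the difference was -0.10, with an interval from -0.30 to 0.10 (adjusted p = 0.692), and its implied standard error of 0.10 was the smallest of the 8 factors. Among its relatives in the deposited table, Cebpb, an acute-phase regulator, had log2 fold changes of 0.18, Cebpd of 0.36 and Cebpg of 0.13, and none of the 3 passed. Cebpe, known from granulocytes and named here after its value was seen, rose to 208 in Huwe1_LKO, against 127 in WT (adjusted p = 0.0439). Nr5a2 (chromosome 1, 136842562 to 136960448), also called LRH-1, which senses phospholipids and drives bile acid synthesis genes, had 455.3 in Huwe1_LKO and 455.2 in WT. Its interval from -0.45 to 0.45 on the log2 scale leaves room for a change of 1.37-fold in either direction.

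**Figure D3:**
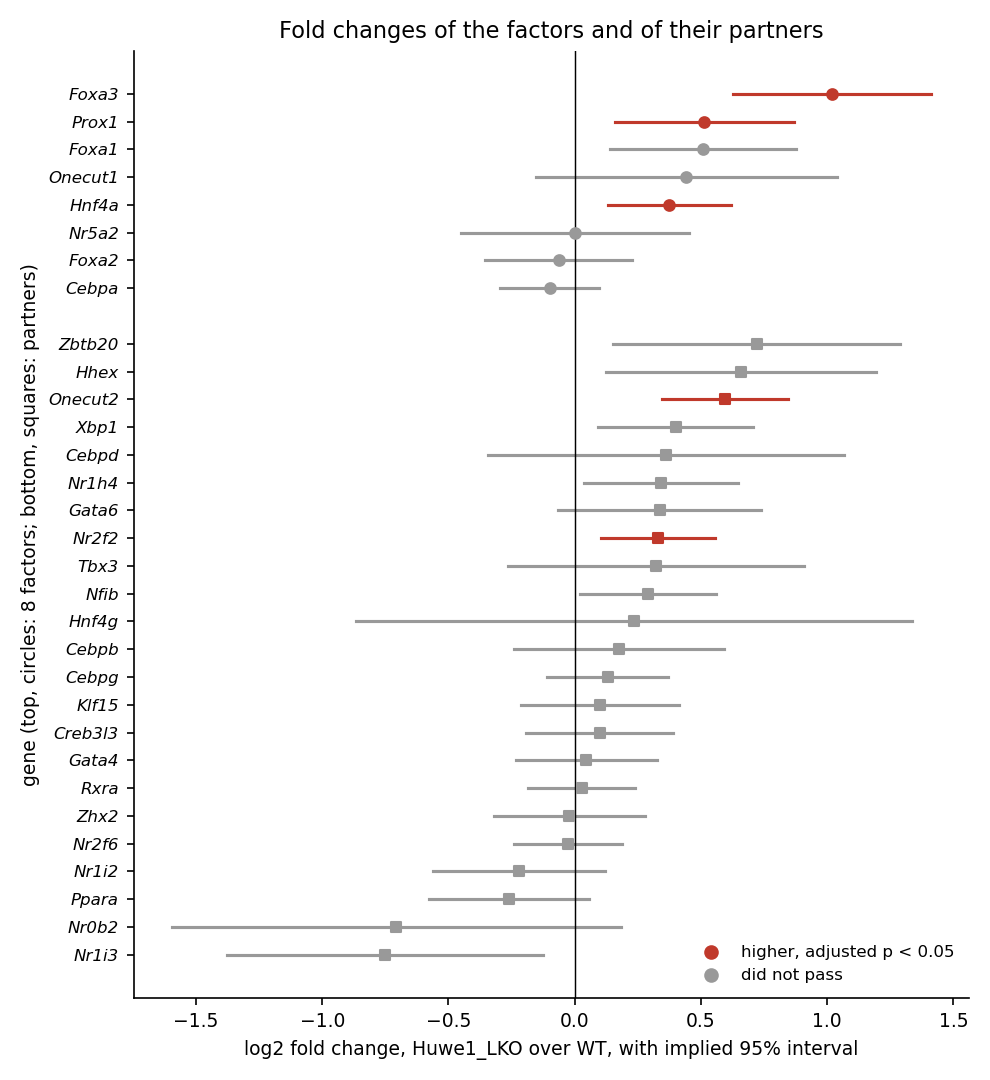
Deposited log2 fold changes of Huwe1_LKO over WT for the 8 factors (circles, top) and 23 partner factors (squares, bottom), with 95% intervals from the standard error implied by the deposited p. Red marks genes higher at an adjusted p under 0.05, and grey those that did not pass. Foxa3 lies farthest to the right, at 1.02.

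The wider network was examined in a list of 23 further transcription factors and receptors that act with the 8 in hepatocytes. As the authors' deposited table calls them, 2 of these rose, 0 fell and 21 did not pass, with 7 higher and 1 lower at an unadjusted p under 0.05. That count is close to the background, since 7.71% of annotated transcription factor genes and 5.95% of genes with a mean of 100 or more were higher. The annotation leaves out several of these partners, Nr1i3, Nr0b2 and Zbtb20 among them. The median log2 fold change was 0.18 and 17 of 23 were above 0. The genes that rose were Onecut2 and Nr2f2. Nr2f2, the orphan receptor COUP-TFII, had 771 in Huwe1_LKO and 613 in WT in the deposited values (adjusted p = 0.0435), a log2 fold change of 0.33 with an error of 0.11. The call of Nr2f2 was lost with fold changes centred on the median of all genes (adjusted p = 0.0628).

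Onecut1 is also active in bile duct cells. Of 11 bile duct markers, 0 passed in DESeq2's deposited result and 1, Spp1, had an unadjusted p under 0.05. Of the 11 markers, 8 had log2 fold changes above 0, and the median was 0.30. The 11 summed to 2494 in Huwe1_LKO and 1835 in WT. Spp1, which macrophages also make, supplied 1410.3 of this sum in Huwe1_LKO and 722 in WT. The keratin Krt19 stood at 19.3 in Huwe1_LKO and 18.0 in WT, with a wide implied standard error of 0.51 on the log2 scale. The sum and these calls therefore do not measure the content of bile duct cells. The part of these cells in the value of Onecut1 was not tested.

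The tissue label was checked against 15 hepatocyte markers, and all 15 were abundant, at 3683 or more in each group. Of these, 2 were higher and 3 lower by the authors' deposited calls, and the median log2 fold change was -0.03. Among genes with a mean of 100 or more, 5.95% were higher and 9.04% lower. Apoa1 (0.52), the main protein of high-density lipoprotein, and Ambp (0.85), a plasma protease inhibitor precursor, rose. Apoa2 (-0.63), Serpinc1 (-0.29), which encodes antithrombin, and Ttpa (-0.55), the vitamin E carrier, fell, all as deposited log2 fold changes. In lists of 8 markers each for blood endothelial, stellate, Kupffer and lymphoid cells, 0 passed in DESeq2's deposited result, and 1 endothelial marker and none of the others had an unadjusted p under 0.05. The median log2 fold changes of these lists were 0.06, 0.14, 0.25 and 0.40 in the same order. Markers above 0 numbered 6, 5, 7 and 7 of 8. The summed values of the lists in Huwe1_LKO and WT were 3153 and 2994 for endothelium, 7882 and 7253 for stellate cells, 2829 and 2375 for Kupffer cells, and 211 and 165 for lymphoid cells. Single lymphoid values were low, from 7.98 to 41.2. These calls and sums do not measure the content of such cells. Huwe1 itself was at 1784 in Huwe1_LKO and 2666 in WT in the deposited table (log2 fold change -0.58, adjusted p = 0.000425).

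Genes known as targets of the factors moved in both directions. For HNF4A, 0 of 24 listed targets rose and 7 fell by the authors' deposited calls, while Hnf4a itself was higher, and the median log2 fold change was -0.21. Among genes with a mean of 100 or more, 9.04% were lower. At an unadjusted p under 0.05, 0 were higher and 8 lower by DESeq2. The targets that fell were Cyp8b1 (-1.53), the sterol hydroxylase needed for cholic acid, Slc10a1 (-0.57), the bile acid uptake carrier, Apoa4 (-1.64), Mttp (-0.66), which loads lipid onto apolipoprotein B, Otc (-0.31) of the urea cycle, Apoc2 (-0.82) and Apoa2, as deposited log2 fold changes. Apob, the structural protein of very-low-density lipoprotein, was at 52168 in Huwe1_LKO and 53219 in WT and did not pass (adjusted p = 0.955). Ttr, which carries thyroid hormone, was at 157034 in Huwe1_LKO and 138898 in WT in the deposited values and did not pass (adjusted p = 0.589). The count of 7 lower targets became 4 with fold changes centred on the most abundant eighth of genes and 8 centred on the median of all genes.

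For the FOXA proteins, 2 of 12 listed targets rose and 0 fell by the deposited calls. The shares over all genes were 4.41% higher and 5.56% lower. The median log2 fold change of the 12 targets was 0.17, with 4 higher and 1 lower at an unadjusted p under 0.05. Hnf4a itself is in this list and makes up part of the count. The other is Afp, the fetal counterpart of albumin, at 34.3 in Huwe1_LKO and 9.36 in WT as the authors' deposited table gives it, with an adjusted p of 7.97e-06 and a log2 fold change of 1.87 (error 0.35). Afp was low in both groups. Alb, which encodes albumin, was 1.37-fold higher in Huwe1_LKO in the deposited values and did not pass (adjusted p = 0.0631). Of 7 fetal liver genes in the deposited table, Afp alone passed, while 5 had log2 fold changes above 0 and the median was 0.25. Only 4 of the 7 had a mean value of 10 or more. The glypican gene Gpc3 stood at 12.8 in Huwe1_LKO and 13.0 in WT, with a wide implied standard error of 0.55 on the log2 scale.

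As background for the remaining lists, 5.95% of genes with a mean of 100 or more were higher and 9.04% lower. For C/EBP alpha, 1 of 11 targets rose and 0 fell by the deposited calls. The list had a median of -0.01 on the log2 scale, with 2 higher and 0 lower at an unadjusted p under 0.05. Gys2, the liver glycogen synthase, rose by 0.78 on the log2 scale (adjusted p = 0.000166), as deposited. For NR5A2, 1 of 15 targets rose and 4 fell by the authors' deposited calls, and the median was -0.08. Apoa1 rose, and Elovl5 (-2.44), Fads2 (-1.02) and Fads1 (-0.59), which build polyunsaturated fatty acids, and Cyp8b1 fell, while the RNA of Nr5a2 did not differ detectably between the groups. Of 6 targets of ONECUT1 or PROX1, 0 rose and 1 fell (Mttp) in the DESeq2 result as deposited, and 0 were higher and 1 lower at an unadjusted p under 0.05, with a median of 0.13. Cyp7a1, a bile acid gene that PROX1 is known to repress, had 2892 in Huwe1_LKO and 2480 in WT and did not pass (adjusted p = 0.79).

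**Figure D4:**
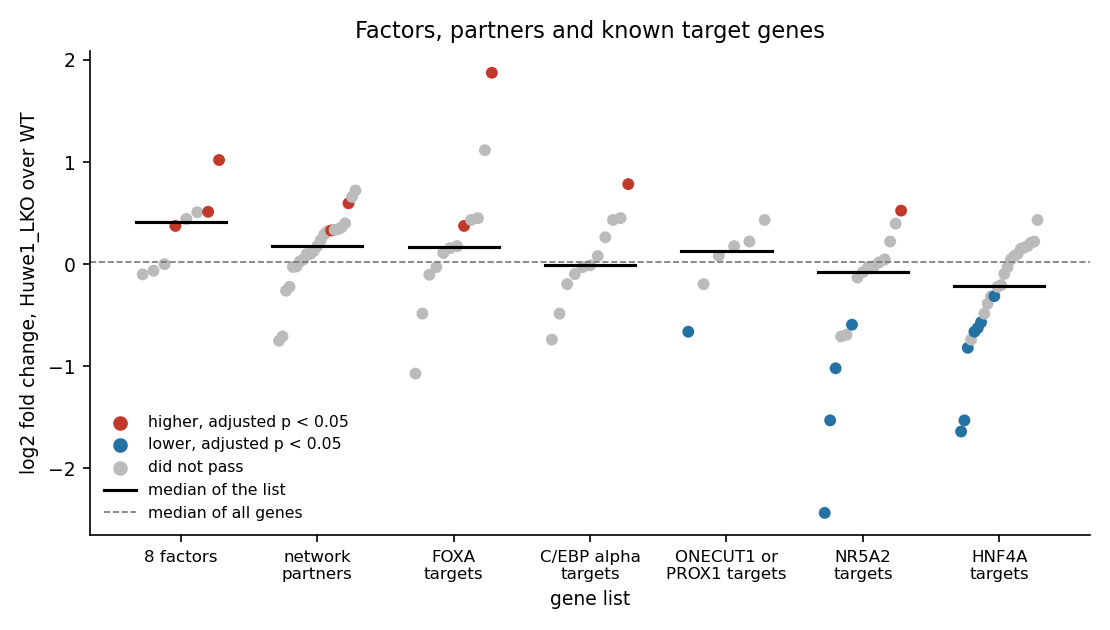
Deposited log2 fold changes of Huwe1_LKO over WT for the 8 factors, 23 partners and the lists of known targets, 1 point per gene. Black bars are the medians of the lists, and the dashed line is the median of all genes, 0.02. The medians run from 0.41 for the factors to -0.21 for the targets of HNF4A.

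The lists of targets overlap, with 12 genes in more than 1 list. Over the 50 different genes, 4 were higher and 10 lower in the deposited table, and the median log2 fold change was -0.05. Over genes with a mean of 100 or more, 5.95% were higher and 9.04% lower. Each listed gene answers to several of these factors, and no protein level or binding enters these values.

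The nearest tested genes on each side of the factors, taken by position alone, gave 3 of 16 called in the authors' deposited table, or 18.75%. The share was 9.97% of all genes and 15.0% of those with a mean of 100 or more. Several neighbours had lower means than that, such as Sstr1 at 0.25 in both groups. Gaps ran from 837 bases (Sympk, by Foxa3) to 1102 kb (Ptprc, by Nr5a2). A count this small is given as a description. Tested genes that overlap a factor in RefSeq were not taken as neighbours, and 1 such gene overlaps Foxa1. Next to Foxa3, the polyadenylation scaffold gene Sympk lies 837 bases away and had 1215 in Huwe1_LKO and 1000.3 in WT (log2 fold change 0.28, adjusted p = 0.0524). On its other side, Irf2bp1 did not pass either (adjusted p = 0.0868), with 448 in Huwe1_LKO and 369 in WT. Ttpal, beyond the end of Hnf4a, rose to 295 in Huwe1_LKO, against 201 in WT (adjusted p = 0.0186). R3hdml, before the start of Hnf4a, fell, at 1.01 in Huwe1_LKO and 3.75 in WT in the deposited table. These values are near the floor, with an implied standard error of 0.56 on the log2 scale. Smyd2, a lysine methyltransferase gene 196 kb from Prox1, fell to 209.8 in Huwe1_LKO, against 423 in WT (log2 fold change -1.01, adjusted p = 7.97e-06). GENCODE annotates antisense RNAs over Hnf4a, Cebpa and Prox1, and a long noncoding RNA on the strand of Onecut1. These were not analysed here, and as no source states stranded counting, their reads cannot be told apart from those of the factors.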

How the data were processed

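RNA of whole livers (4 Huwe1_LKO and 4 WT, grouped by title) was sequenced by a commercial provider. The authors mapped reads to mm10 and used DESeq2, per the submitters' processing notes, with no version. The sources used here name neither the aligner nor the counting step. Per the file headers, the deposited expression columns hold 1 normalized signal for each gene in each group. They sum to 17533080 for Huwe1_LKO and 17347886 for WT. The deposited log2 column sets KO over WT as a fold change, and the deposited p-value columns are unadjusted and adjusted (Benjamini-Hochberg over all 16640 genes, to within 1.74e-06). The 707 genes with the lowest values have log2 fold changes of only 0.109 to 0.117 in size, so folds of low genes appear shrunken toward 0. The deposited log2 fold changes equal the log2 ratios of the 2 group values to within 4.71e-08. Group values of low genes, and the levels, sums and shares built on them, therefore carry the same limit. Depth per liver is unknown. The p-values rest on the spread among these 8 livers, which nothing in the labels ties to separate litters or batches.

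The planned fits on values per liver could not be made, so calls are the authors' own, fitted over all genes, at an adjusted p under 0.05. Standard errors were implied as the size of the log2 fold change over the normal score of the deposited p, with 95% intervals from them. This takes the deposited p to come from a Wald test of the deposited fold change, which no source states, and every standard error and interval depends on it. Levels of different genes were compared per kb of the deposited length. Recomputed p-values were tested on simulated data. These were drawn under the same Wald relation, so they tested the computation and cannot test that assumption. Members and lists were chosen with earlier results of these data known, so they are described by counts and medians only. Genes were matched by symbol, and 1 listed gene (H19) had no match. Named genes are the 8 factors, their relatives and the listed genes that passed, plus neighbours by position. Before counting, 4 genes were left out of the lists and are not reported here, so all list counts are over the remaining members. Apob, Ttr, Alb, Cyp7a1, Gpc3, Zbtb20, Xbp1, Nr0b2, Nr1i3 and single markers of other cells fall outside this rule and were named after their values were seen. Coordinates and sequences are from RefSeq (GRCm38.p6), in which 16608 IDs matched, and all 8 factors had a promoter window. Tables were handled with pandas 2.3.3 under Python 3.11.15. Statistics used scipy 1.17.1 with numpy 2.4.6, and plots matplotlib 3.10.9.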

Additional observations from a re-analysis of the deposited data

How the results depend on the processing

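The 6 alternatives were 3 other centres of the fold changes (the median of all genes, of the most abundant eighth of genes, and of the hepatocyte markers), removal of the trend with gene length and level, adjustment over genes with a mean value of 10 or more, and a threshold of 0.01. The number of factors higher in Huwe1_LKO, 3 as reported, ranged from 2 to 4 under the first 5 and was 1 (Foxa3) at the threshold of 0.01, and 0 were lower under all 6. Foxa3 and Onecut2 passed under all 6, Hnf4a under 5 and Prox1 and Foxa1 under 4. Directions turned only for factors near 0. The log2 fold change of Nr5a2 became -0.0201 with the centre on all genes, that of Foxa2 0.0176 with the most abundant eighth and 0.0285 with the trend removed, and that of Cebpa 0.0213 with the trend removed. None of these passed.

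Partners that rose, 2 as reported, numbered 1 with the centre on all genes, 3 with the most abundant eighth, 5 with the trend removed and 1 at 0.01. Lower HNF4A targets, 7 as reported, numbered 4 with the most abundant eighth, 4 with the trend removed (where 2 were higher) and 3 at 0.01. They numbered 8 with the centre on all genes, 6 with the hepatocyte markers and 8 with low genes left out. Higher targets of FOXA, 2 as reported, numbered 1 at 0.01. They numbered 3 with the most abundant eighth, with the hepatocyte markers, with the trend removed and with low genes left out. Higher targets of C/EBP alpha, 1 as reported, numbered 2 with the most abundant eighth, with the hepatocyte markers, with the trend removed and with low genes left out. Higher NR5A2 targets, 1 as reported, numbered 2 with the most abundant eighth and with the trend removed, and 0 at 0.01. The 1 lower target of ONECUT1 or PROX1 was lost at 0.01. Over all genes, 734 higher and 925 lower became 1168 and 625 with the most abundant eighth and 414 and 561 at 0.01, and transcription factor genes, 44 and 14, became 69 and 7, and 23 and 7. The causes were not tested. Without division by length Hnf4a ranked 1 and Cebpa 2 in Huwe1_LKO, and Onecut1 8. No paired analysis was possible because the deposited table holds no values per liver, and for the same reason leaving out single livers and other normalizations were not run.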
